A study of Homo sapiens with 4 samples.

Results

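The insulin-like growth factor (IGF) family was examined in CD31+ cells that human H1 embryonic stem cells had formed by day 8 of hematopoietic differentiation. The 10 genes were chosen by symbol out of 58229 genes with a value: the ligand IGF2, the non-coding RNA H19 of the same locus, the receptors IGF1R and IGF2R, and the binding proteins IGFBP2 to IGFBP7. There were 2 libraries of cells with forced expression of HAND1, a transcription factor of early mesoderm (HAND1_OE), and 2 libraries of cells without it (Control). The question of the study was whether HAND1 keeps mesenchymal genes active and holds back blood formation. Both groups went through the same protocol, with activin A and BMP4 first and VEGF and bFGF afterwards, and both were collected as CD31+ cells. All libraries come from a single cell line, and the study's timeline shows HAND1 switched on with doxycycline in the days before collection. The vector, the clonality of the cells and whether Control cells carried the construct are not given in the sources used here. The labels do not say whether replicates were separate cultures, so p-values measure only the spread between these libraries.

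IGF2 is a secreted growth factor of the embryo. It signals through IGF1R, a receptor tyrosine kinase that feeds the PI3K and AKT pathway, whereas IGF2R binds IGF2 and carries it to lysosomes for degradation. The IGFBP proteins bind IGFs outside the cell, extend or limit their access to the receptor, and are cleaved by proteases such as PAPPA. IGF2 and H19 lie in an imprinted domain in which IGF2 is usually transcribed from the paternal copy and H19 from the maternal copy.

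Values are FPKM, fragments scaled to transcript length and to the depth of the library, so levels of different genes can be compared. The table gives no depth. The most frequent value of FPKM times transcript length, over single-exon genes of at least 1000 nt, was taken as 1 fragment. On that basis 1 FPKM on a transcript of 1000 nt stood for about 18.4 to 20.4 fragments, depending on the library. HAND1 itself was at 12.1 and 14.3 FPKM in Control against 520.5 and 517 FPKM in HAND1_OE (difference of log2(FPKM + 1) 5.20, limma adjusted p = 0.00145), although the values do not separate the introduced from the endogenous transcript. The endothelial markers matched the label, led by EGFL7 and KDR. Their sum was 1709 to 2255 FPKM with overlapping groups, and 1 of 11 genes was called, against 4.16% of all genes tested. Of the blood markers, 7 of 9 pan-hematopoietic genes tested (led by MYB and RUNX1) had an adjusted p under 0.05 (termed called) and were lower in HAND1_OE. All 7 erythroid genes tested (led by HBE1 and ALAS2) were likewise called lower, against 2.11% of all genes tested. For low values, 1 and 3 further genes of these lists were not tested. PTPRC, which encodes the blood cell antigen CD45, did not exceed 0.023 FPKM in any library. In bulk samples, fewer cells of a type and less RNA per cell cannot be told apart. HAND1_OE replicate 2 stood apart in its sum of 10 hepatic and visceral endoderm markers (led by APOA2 and AFP), 1145 FPKM against 287 to 526 in the other libraries. The other marker lists were led by THY1 and COL3A1 (stromal), NKX2-5 and TNNT2 (cardiac muscle), ACTA2 and TAGLN (smooth muscle), GATA3 and TFAP2A (trophoblast) and DNMT3B and POU5F1 (pluripotent). Of the cardiac muscle, smooth muscle, endoderm and pluripotent lists 0 genes were called, against 4.16% of all genes tested. The stromal and trophoblast lists are given with the members below. SLC4A1, MYH11, SOX2 and XAGE2 were under 0.1 FPKM in every library.

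The reference sequences behind these results are shown first. The window of 250 bases before the start of IGFBP5 (chr2:216695550-216695799, minus strand) is given because IGFBP5 was the single member called. Its neighbour IGFBP2 (chr2:216632578-216632827, plus strand) and the receptor IGF2R (chr6:159968832-159969081, plus strand) are given for contrast. Sequences are from RefSeq on GRCh38.p14, run 5′ to 3′ along the gene's strand, and have capitals where the E-box CANNTG matched, the short motif class that HAND1 and its partner proteins recognise.
IGFBP5: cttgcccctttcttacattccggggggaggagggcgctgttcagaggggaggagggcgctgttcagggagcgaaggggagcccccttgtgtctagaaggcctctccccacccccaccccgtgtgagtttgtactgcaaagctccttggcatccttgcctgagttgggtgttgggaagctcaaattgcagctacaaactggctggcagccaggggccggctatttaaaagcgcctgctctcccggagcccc
IGFBP2: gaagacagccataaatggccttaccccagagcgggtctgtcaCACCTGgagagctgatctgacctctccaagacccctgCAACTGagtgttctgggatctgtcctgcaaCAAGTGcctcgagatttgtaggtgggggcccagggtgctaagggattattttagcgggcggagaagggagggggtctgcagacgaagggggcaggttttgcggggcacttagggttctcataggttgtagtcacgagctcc
IGF2R: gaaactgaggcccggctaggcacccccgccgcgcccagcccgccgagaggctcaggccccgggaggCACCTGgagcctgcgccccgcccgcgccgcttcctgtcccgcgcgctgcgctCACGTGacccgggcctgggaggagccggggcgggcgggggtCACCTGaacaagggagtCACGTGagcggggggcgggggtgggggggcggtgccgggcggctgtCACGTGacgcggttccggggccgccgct
CANNTG reads the same on both strands. It was searched in the 8 members with an entry in the promoter table, which has none for IGF2 and IGFBP7. The start nearest to that of the deposited gene was used, and IGFBP2 has 3 starts in that table. This start lay 602 bases from the deposited one for IGFBP3, 432 for IGF1R, 231 for IGFBP6 and 204 for H19. The window of IGFBP3 thus lay within the deposited gene, and those of IGFBP6 and H19 lay partly within it. The motif matched 0 times for IGFBP5 and IGF1R, 3 times for IGFBP2, 5 times for IGF2R, and 1 time each for H19, IGFBP3, IGFBP4 and IGFBP6. So 6 of the 8 windows held it, against 61.8% of 35116 windows of this length. CATCTG, which is a form of CANNTG, was searched on both strands and stood in the window of IGFBP4 alone, against 12.2% of all windows. TATAAA, searched on both strands, also stood only in the window of IGFBP4, against 10.7%. These matches describe letters and show no binding.

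H19 also contains the hairpin of a microRNA, whose mature forms are shown with the seed (bases 2 to 8) in capitals. They lie within H19 at chr11:1996800-1996822 and chr11:1996768-1996787 on the minus strand, and their seeds differ.
hsa-miR-675-5p: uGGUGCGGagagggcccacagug
hsa-miR-675-3p: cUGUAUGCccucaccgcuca
Libraries of this kind do not capture mature microRNAs, so only the level of the H19 host transcript is described here.

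The ligand IGF2 was more abundant in both HAND1_OE libraries than in both Control libraries, while H19 was barely detected in any. IGF2 (ENSG00000167244.18, GRCh38 chr11:2129112-2141238) reached 210 and 151 FPKM in Control, compared with 611 and 386 FPKM under HAND1_OE. The groups did not overlap, and the ratio of their means (180 ± 42.3 and 499 ± 159 FPKM, SD, n = 2) was 2.76. On the log2(FPKM + 1) scale the difference was 1.44 (standard error 0.284, 95% confidence interval 0.74 to 2.15), with an adjusted p = 0.0588 in limma that missed the threshold of 0.05. IGF2 passed under 9 of 15 alternatives, with adjusted p-values between 0.00701 and 0.279 over all of them. When each library was left out in turn, the difference ranged from 1.11 to 1.77. Among all genes tested IGF2 ranked 352nd and 460th by level in the Control libraries and 132nd and 174th in the HAND1_OE libraries.

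H19 (ENSG00000130600.17, chr11:1995163-2001470) measured 0.0756 and 0.177 FPKM in the Control libraries and 0.229 and 0.147 FPKM in those of HAND1_OE. The groups overlapped, and H19 did not reach 1 FPKM in at least 2 libraries, so it was not tested. On its longest annotated transcript (2348 nt) these values stand for 3.30 to 11.0 fragments, and on its shortest (475 nt) for 0.668 to 2.22. IGF2 exceeded H19 in every library, and the fragment numbers of H19 are too low to order its groups. The gene bodies lie 127641 bp apart. The nearest tested gene on the far side of H19, MRPL23, a mitochondrial ribosomal protein gene named for its position, was at 41.3 to 62.2 FPKM with a log2 difference of 0.08 (adjusted p = 0.915). On the other side of IGF2, at 127256 bp, the nearest tested gene was ASCL2, a transcription factor gene, at 1.15 and 1.18 FPKM in Control against 0.073 and 0.056 FPKM in HAND1_OE (log2 difference -1.02, adjusted p = 0.0707). Its groups did not overlap, and HAND1_OE was the lower group. ASCL2 reached 1 FPKM only in the Control libraries, so it entered the test through the group where it was higher.

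Transcripts that overlap IGF2 limit how exactly its level can be read. IGF2-AS, an antisense transcript (chr11:2140501-2148666), reached 2.09 and 1.67 FPKM in Control, compared with 4.12 and 2.56 FPKM under HAND1_OE, and these groups did not overlap either (log2 difference 0.57, adjusted p = 0.323). Use of strand in counting is not stated, so reads from IGF2 and IGF2-AS cannot be told apart where they overlap. The read-through gene INS-IGF2 did not exceed 0.0483 FPKM. IGF1, the other IGF ligand, measured 0.318 and 0.388 FPKM in the Control libraries and 0.157 and 0.976 FPKM in those of HAND1_OE, and INS, the insulin gene, was listed at 0 in all libraries. IGF2 was thus the predominant ligand by level in each library.

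**Figure D1:**
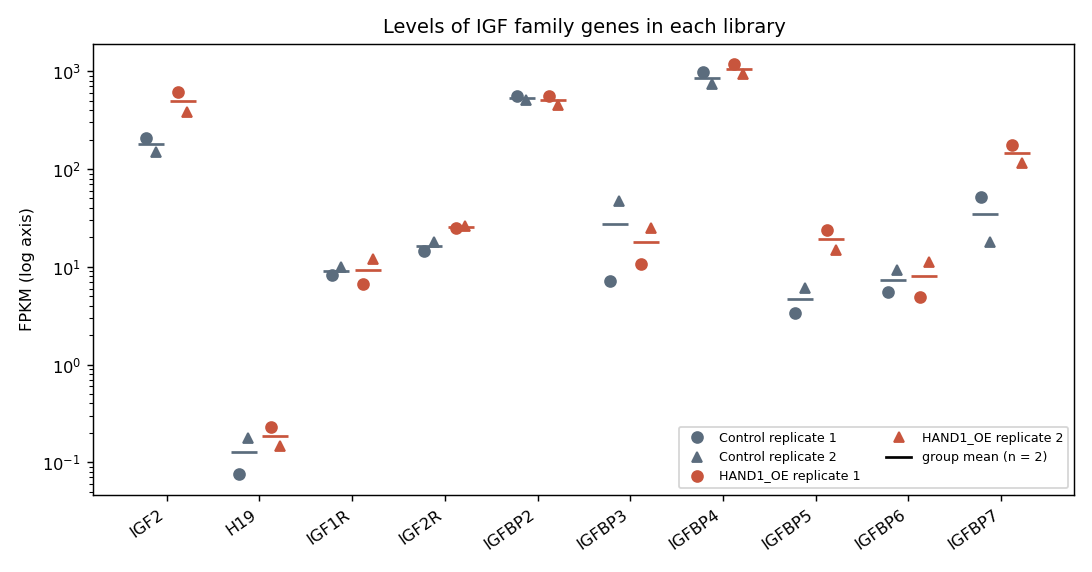
FPKM of the 10 IGF family genes on a log axis, with 1 point for each library (circles replicate 1, triangles replicate 2; grey Control, red HAND1_OE) and a line at each group mean. The red points lie above the grey points for IGF2, IGF2R, IGFBP5 and IGFBP7, and H19 lies under 1 FPKM throughout.

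The receptors differed in their pattern. IGF1R (ENSG00000140443.13, chr15:98648971-98964530), which transmits the growth signal, reached 8.33 and 9.86 FPKM in Control, compared with 6.64 and 11.9 FPKM under HAND1_OE. The HAND1_OE libraries lay on either side of the Control libraries, and the log2 difference was -0.018 (95% confidence interval -0.72 to 0.68, adjusted p = 0.986).

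IGF2R (ENSG00000197081.12, chr6:159969099-160113507), which clears IGF2, measured 14.4 and 18.1 FPKM in the Control libraries and 25.0 and 26.1 FPKM in those of HAND1_OE. The groups did not overlap, and the ratio of the means was 1.58. The log2 difference was 0.63 (standard error 0.168, 95% confidence interval 0.21 to 1.05) with an adjusted p = 0.125, past the threshold under 1 of 15 alternatives. The ratio of IGF2R to IGF1R was 1.73 and 1.83 in Control and 3.77 and 2.19 in HAND1_OE. INSR, the insulin receptor, which also binds IGF2, was at 1.86 to 2.12 FPKM in the libraries (log2 difference -0.052, adjusted p = 0.937). IGF1R exceeded INSR by 3.42-fold to 6.40-fold in every library, with overlapping groups.

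Of the binding proteins, IGFBP5 rose and IGFBP7 was at higher values in HAND1_OE, whereas the most abundant members IGFBP4 and IGFBP2 showed overlapping groups. IGFBP5 (ENSG00000115461.4, chr2:216672105-216695525), a binding protein that attaches to extracellular matrix, reached 3.35 and 6.13 FPKM in Control, compared with 23.6 and 14.7 FPKM under HAND1_OE. Both HAND1_OE libraries exceeded both Control libraries, with means of 4.74 ± 1.96 and 19.1 ± 6.28 FPKM (SD, n = 2) and a ratio of 4.04. The log2 difference was 1.82 (standard error 0.324, 95% confidence interval 1.01 to 2.63, limma adjusted p = 0.045). The call lay close to the threshold: it was lost under 7 of 15 alternatives, among them a pseudocount of 0.1 (adjusted p = 0.0518), all genes above 0 (0.255), no trend in limma (0.0512) and the data without Control replicate 1 (0.0975) or without HAND1_OE replicate 1 (0.0546). Over all 15 the adjusted p ranged from 0.0116 to 0.255 and the difference from 1.46 to 2.17.

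IGFBP7 (ENSG00000163453.11, chr4:57030773-57110385), a secreted protein with low affinity for IGFs that is found around vessels, measured 51.3 and 18.0 FPKM in the Control libraries and 178 and 116 FPKM in those of HAND1_OE. The groups did not overlap, but the Control libraries differed widely from each other. The log2 difference of 2.20 (standard error 0.491, 95% confidence interval 0.98 to 3.42) was larger than that of IGFBP5 and had an adjusted p = 0.0812. It passed under 5 of 15 alternatives. When each library was left out in turn, the difference ranged from 1.47 to 2.93. Over all 15 the adjusted p ranged from 0.0121 to 0.337. The ratio of the means was 4.25.

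IGFBP4 (ENSG00000141753.6, chr17:40443461-40457731), an inhibitory binding protein and the substrate of PAPPA, had the highest level of the family. It reached 983 and 737 FPKM in Control, compared with 1175 and 930.1 FPKM under HAND1_OE, which placed it 74th to 95th among all genes tested in each library. The groups overlapped (log2 difference 0.30, 95% confidence interval -0.28 to 0.87, adjusted p = 0.61). IGFBP2 (ENSG00000115457.9, chr2:216632828-216664436), a major binding protein of fetal tissue, measured 553 and 507 FPKM in the Control libraries and 554 and 454 FPKM in those of HAND1_OE. Its groups overlapped as well (log2 difference -0.078, 95% confidence interval -0.53 to 0.37, adjusted p = 0.892), and the gene lies 7668 bp from IGFBP5.

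IGFBP3 (ENSG00000146674.14, chr7:45912245-45921874), the main carrier of IGFs in serum, varied more between replicates than between groups. It reached 7.24 and 47.1 FPKM in Control, compared with 10.8 and 24.9 FPKM under HAND1_OE, so that replicate 2 exceeded replicate 1 in each group. The log2 difference of -0.19 had a 95% confidence interval of -2.29 to 1.91 (adjusted p = 0.949). All 10 hepatic and visceral endoderm markers were likewise higher in replicate 2 than in replicate 1 of both groups. The same order held for 4 of the 10 members (IGF1R, IGF2R, IGFBP3 and IGFBP6) and for 33.3% of all genes tested. AFP, the fetal serum protein of yolk sac and liver, measured 53.7 and 100.4 FPKM in the Control libraries and 61.5 and 230.5 FPKM in those of HAND1_OE. ALB, which defines mature hepatocytes, did not exceed 0.716 FPKM. The order of the second replicates differed, since IGFBP3 was higher in Control and AFP in HAND1_OE, and the part of these cells in the IGFBP3 values was not tested.

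**Figure D2:**
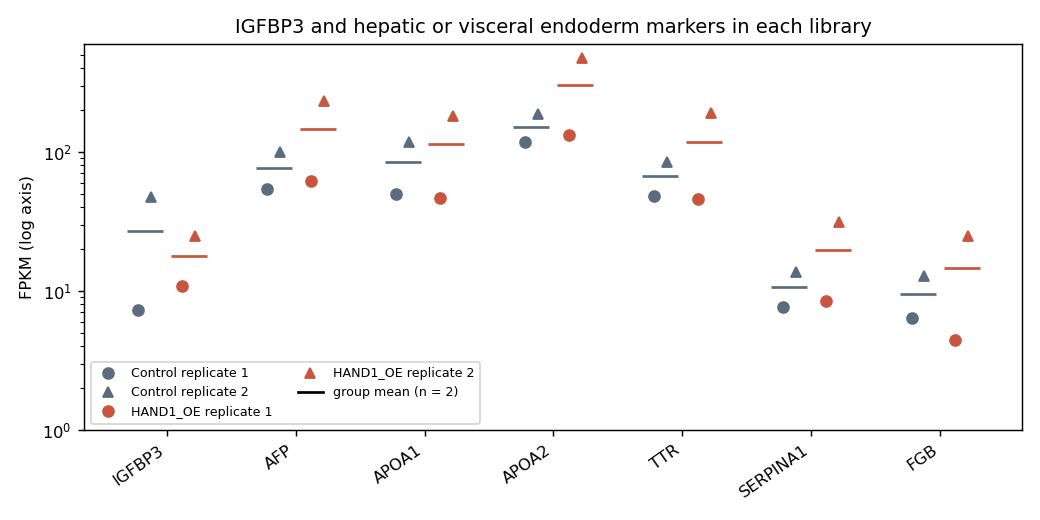
FPKM on a log axis of IGFBP3 and 6 of the 10 hepatic and visceral endoderm markers, with 1 point for each library and a line at each group mean. For each gene the triangles (replicate 2) lie above the circles (replicate 1) in both groups.

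IGFBP6 (ENSG00000167779.7, chr12:53097436-53102345), which binds IGF2 with preference over IGF1, reached 5.58 and 9.19 FPKM in Control, compared with 4.92 and 11.1 FPKM under HAND1_OE. The groups overlapped, with a log2 difference of 0.047 (95% confidence interval -0.93 to 1.02, adjusted p = 0.975). IGFBP1 and IGFALS, the partner of IGFBP3 in serum, did not exceed 0.404 and 0.197 FPKM.

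Across the family, 1 of the 9 members tested was called, upward, and 0 were called downward. Over all 14622 genes tested 4.16% were called, made up of 2.04% upward and 2.11% downward. The groups did not overlap for 4 of the 9 members tested (IGF2, IGF2R, IGFBP5 and IGFBP7), against 46.3% of all genes tested. For these 4 members HAND1_OE was the higher group, as for 16.2% of all genes, and it was the lower group for 0 members, against 30.1% of all genes. At an unadjusted p under 0.05 these 4 passed, against 17.4% of all genes in either direction. The median log2 difference over the 9 members was 0.30 and over all genes -0.078. The balance over all genes depended on scaling. At an unadjusted p under 0.05 in limma, 997 genes were higher and 1554 lower with the values as deposited, against 1281 and 1165 after median-ratio scaling. The shares of genes whose groups did not overlap were not recomputed after scaling.

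**Figure D3:**
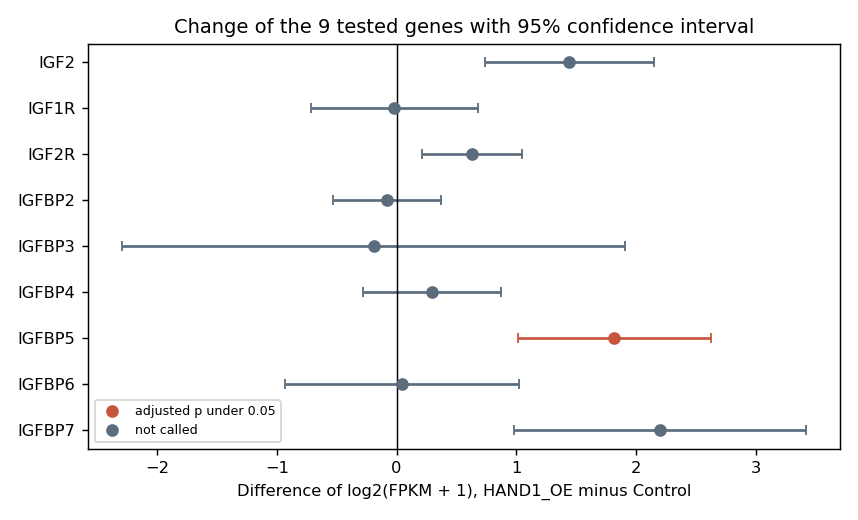
Difference of log2(FPKM + 1) between HAND1_OE and Control for the 9 members tested, with 95% confidence intervals from limma. IGFBP5 (red, 1.82) is the single member called, and the intervals of IGF2, IGF2R and IGFBP7 also lie above 0 before adjustment over all genes.

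By level, the order in Control was IGFBP4, IGFBP2, IGF2, IGFBP7, IGFBP3, IGF2R, IGF1R, IGFBP6, IGFBP5 and H19. In that order the values of IGFBP7 and IGFBP3, of IGFBP3 and IGF2R, of IGF1R and IGFBP6, and of IGFBP6 and IGFBP5 overlapped between neighbours. In HAND1_OE the order was IGFBP4, IGFBP2, IGF2, IGFBP7, IGF2R, IGFBP5, IGFBP3, IGF1R, IGFBP6 and H19. There the values of IGFBP2 and IGF2 overlapped, as did those of IGFBP5 and IGFBP3, of IGFBP3 and IGF1R, and of IGF1R and IGFBP6. IGFBP5 was thus 9th of the 10 in both Control libraries and 6th and 7th in the HAND1_OE libraries.

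The composition of the binding proteins was described by the share of each in the summed FPKM of IGFBP2 to IGFBP7, a measure that does not depend on library scaling. IGFBP4 made up 61.3% and 55.6% of that sum in Control and 60.4% and 60.0% in HAND1_OE. IGFBP2 made up 34.5% and 38.3% in Control and 28.5% and 29.3% in HAND1_OE, so that its share was lower in both HAND1_OE libraries although its level overlapped. The share of IGFBP7 was 3.20% and 1.36% in Control and 9.14% and 7.49% in HAND1_OE, and that of IGFBP5 was 0.209% and 0.462% against 1.21% and 0.947%. These libraries did not overlap for IGFBP2, IGFBP5 and IGFBP7. For each 100 FPKM of binding proteins there were 13.1 and 11.4 FPKM of IGF2 in Control and 31.4 and 24.9 FPKM in HAND1_OE. These shares are given as a description and were not tested; an exact permutation of 2 against 2 libraries could not give a two-sided p below 0.333.

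**Figure D4:**
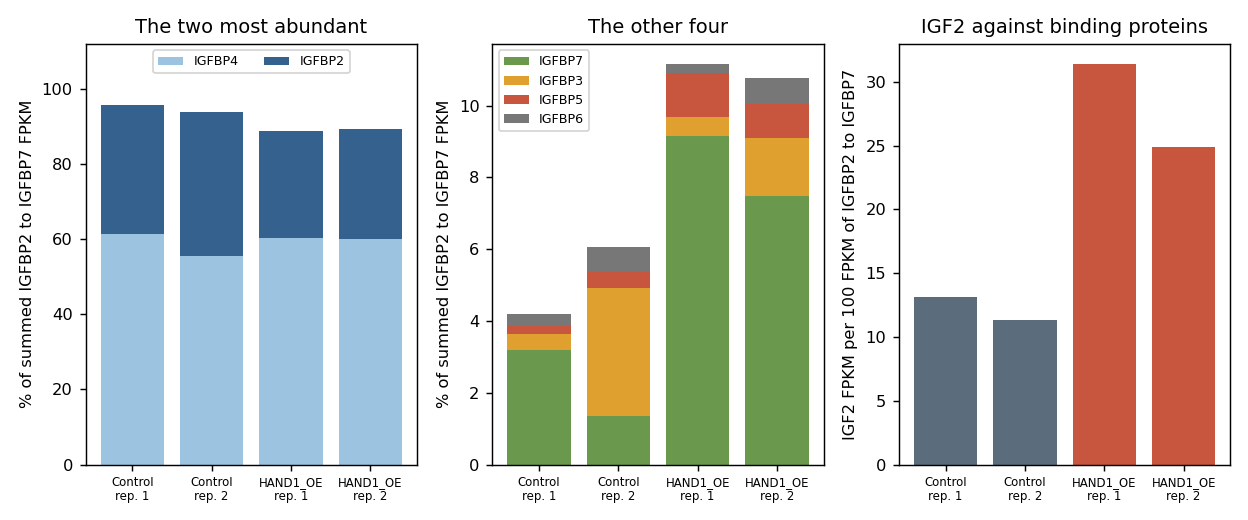
Left and middle, share in percent of each binding protein in the summed FPKM of IGFBP2 to IGFBP7, as stacked bars for each library; right, IGF2 FPKM per 100 FPKM of these binding proteins. The stack of IGFBP7, IGFBP3, IGFBP5 and IGFBP6 and the IGF2 bars are higher in both HAND1_OE libraries than in both Control libraries.

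Markers of other cell types also differed between the groups. Of the 10 stromal markers 9 were tested, of which 3 were called higher, against 2.04% of all genes tested, and 0 were called lower. The 3 were the pericyte receptor PDGFRB (log2 difference 2.03, limma adjusted p = 0.0164), the collagen-binding protein LUM (1.41, adjusted p = 0.0214) and the matrix protein POSTN (1.97, adjusted p = 0.0090). POSTN reached 1 FPKM only in the HAND1_OE libraries and so entered the test through the group where it was higher. The count of 3 and the share of all genes therefore do not compare evenly. Not all of the list was higher in HAND1_OE. COL1A2, a chain of type I collagen, was at 154 and 141 FPKM in Control against 68.6 and 101 FPKM in HAND1_OE (log2 difference -0.82, adjusted p = 0.123). Its partner chain COL1A1 was at 89.9 and 79.7 FPKM against 70.0 and 74.0 FPKM (-0.23, adjusted p = 0.52), and the groups of TWIST1, a mesenchymal transcription factor, overlapped (-0.06, adjusted p = 0.93). The sum of the list was 738 to 814 FPKM in Control and 1119 to 1135 FPKM in HAND1_OE, while DCN, a fibroblast marker, did not exceed 1.72 FPKM. Among endothelial markers VWF was called higher (14.6 to 31.3 FPKM in Control, 95.4 to 107 FPKM in HAND1_OE, limma adjusted p = 0.0338). In the Control libraries VWF and IGFBP7 were both higher in replicate 1. So were CDH5, KDR, TEK, TIE1, ERG, ESAM and EGFL7, but not PECAM1, EMCN and ROBO4. Of the 11 endothelial markers, the groups did not overlap for 2 with HAND1_OE higher and 3 with it lower, against 16.2% and 30.1% of all genes. The 3 lower were KDR, TIE1 and ROBO4, of which ROBO4 had the largest difference (log2 difference -1.32, limma adjusted p = 0.217). Of the 6 trophoblast markers 2 were tested, of which TFAP2A was called higher (limma adjusted p = 0.0419). The groups of the other, GATA3, overlapped (log2 difference 0.024, limma adjusted p = 0.967), while CGA and KRT7 did not exceed 0.507 FPKM. The part of these cell types in the values of IGF2, IGFBP5 and IGFBP7 was not tested.

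The further genes of the pathway, 49 in 8 lists, showed no call. After genes with low values were left out, 42 were tested. With limma 0 of the 42 were called in either direction, against 4.16% of all genes tested. Beside so small a share, 0 of 42 does not set these genes apart from all genes. Of the 42, 7 had an unadjusted p under 0.05, a share close to the 17.4% of all genes tested. Their median log2 difference was -0.058, against -0.078 over all genes. Their smallest adjusted p was 0.0881. The list of binding protein proteases and their inhibitors had the largest median of the 8 lists, 0.85 over 5 genes tested. Of these, 4 lay higher in both HAND1_OE libraries, against 16.2% of all genes tested. PAPPA and STC2 reached 1 FPKM only in the HAND1_OE libraries and so entered the test through the group where they were higher. The list was also drawn up with earlier results of these data known, so its count and the share of all genes do not compare evenly.

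Of that list, PAPPA, the protease that cleaves IGFBP4 and IGFBP5, measured 0.936 and 0.710 FPKM in the Control libraries and 1.52 and 2.58 FPKM in those of HAND1_OE (log2 difference 0.72, adjusted p = 0.229). STC2, an inhibitor of PAPPA, was at 0.231 and 0.833 FPKM against 1.98 and 2.06 FPKM (1.01, adjusted p = 0.12), whereas the groups of the related inhibitor STC1 overlapped (0.16, adjusted p = 0.76). HTRA1 (0.85, adjusted p = 0.18), a serine protease, and ADAM12 (1.69, adjusted p = 0.113), a metalloprotease that cleaves IGFBP3 and IGFBP5, were named after their values were seen.

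The intracellular part of the pathway was described in the same way. The 18 genes of PI3K, AKT and mTOR had differences between -0.55 and 0.63 with a median of -0.054. Of the adaptors, which link receptors to PI3K and RAS, IRS1 was at 0.741 and 1.36 FPKM in Control and 1.68 and 2.53 FPKM in HAND1_OE (0.60, adjusted p = 0.329), IRS2 had a log2 difference of -0.49 (adjusted p = 0.478), and the inhibitory adaptor GRB10 one of -0.65 (adjusted p = 0.364). The RNA-binding proteins IGF2BP1, IGF2BP2 and IGF2BP3, which bind IGF2 transcripts, had log2 differences of -0.046, -0.027 and -0.039. Their 95% confidence intervals reached from -0.46 to 0.38 at most. FOXO4, a transcription factor that AKT inhibits and that was also named after its values were seen, was at 10.9 and 13.9 FPKM in Control and 5.66 and 7.12 FPKM in HAND1_OE (-0.86, adjusted p = 0.0881).

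**Figure D5:**
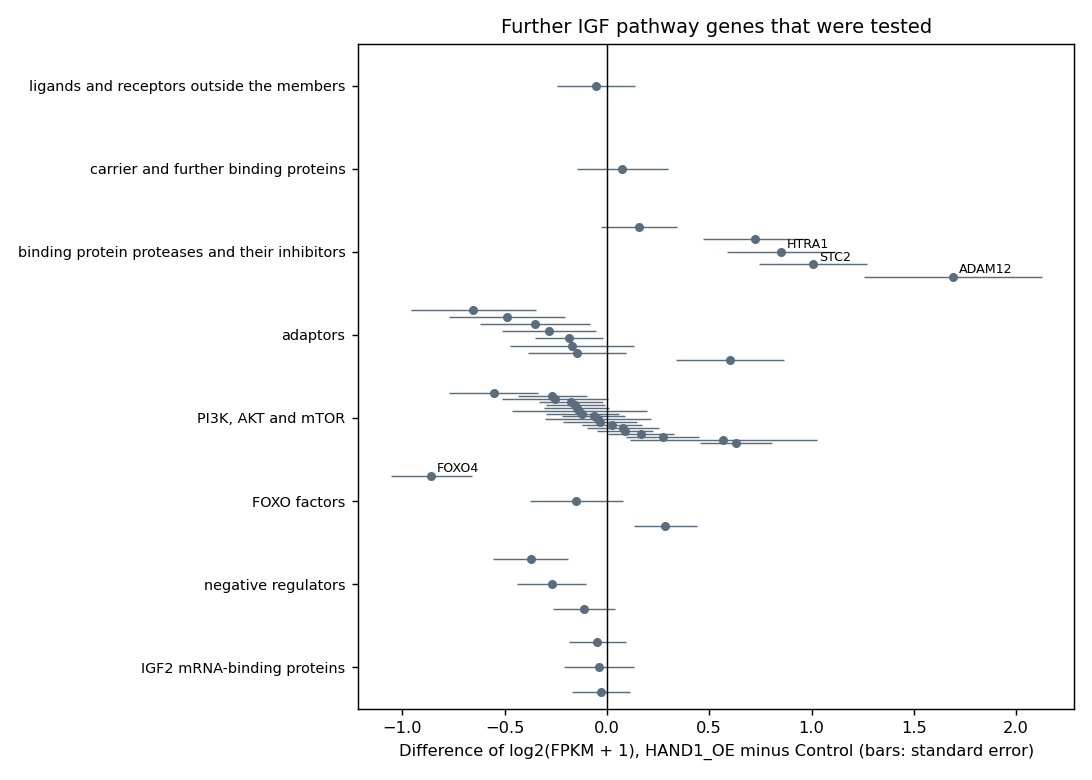
Difference of log2(FPKM + 1) between HAND1_OE and Control for the 42 further pathway genes tested, by role, with standard errors. The genes for proteases and their inhibitors lie to the right of 0 and FOXO4 to the left. Of the 42, 0 were called, against 4.16% of all genes tested.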

How the data were processed

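Total RNA of 4 samples was sequenced after TruSeq library preparation, and the titles gave the groups. The authors deposited FPKM values, fragments scaled per kilobase of transcript and by library depth, in 1 table that states no unit. The unit was read from the values, which are not whole and whose library sums differ, and from the FPKM axis the study plots. The submitters' processing notes name BWA, Bowtie, RSEM and hg19, with no versions or roles, but the coordinates of 56550 of 58229 genes equal those of GENCODE release 29 on GRCh38, which is used here. Starts are counted from 1. From 58365 entries, 45 for Y copies of pseudoautosomal genes and 91 with a repeated gene ID (highest mean kept) were left out. Between 667 and 681 values per library were positive yet smaller than 0.0001 FPKM, as estimated rather than counted reads give, so fragment numbers are approximate and cover counting error only.

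A gene entered the test if 2 or more libraries had 1 FPKM or more. The log2(FPKM + 1) values were fitted in limma 3.58.1 under R 4.3.3, with the prior variance following the mean level. P-values are two-sided, with Benjamini-Hochberg adjustment across the 14622 genes that entered. A gene with an adjusted p under 0.05 is termed called. Differences on this scale understate the change of low genes. In simulated data over 14622 genes, 200 were changed in each of 20 draws, by a known fold of FPKM + 1. Of genes changed 4-fold 73.5% were recovered, of those changed 2-fold 3.7%, and 5.05% of calls were false. The draws took limma's own fitted spread and independent libraries, so this false share follows from the setting and is no estimate for these libraries.

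Named by rule were HAND1, all members, called pathway and imprinted genes, 16 further genes of those lists fixed by name, and from each marker list the top 2 and any defining marker near 0. Other genes named were chosen after their values were seen. Members and lists were chosen with earlier results of these data known.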

Additional observations from a re-analysis of the deposited data

How the results depend on the processing

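Depth limits what can be said of H19, which rests on few fragments. The count of members called higher, 1, was 0 with a pseudocount of 0.1, with all genes above 0 tested or without the limma trend. It was 2 with 1 FPKM in every library, after quantile normalization, after median-ratio scaling or once the trend with length and GC was taken out, and 3 with protein-coding genes alone. When each library was left out it ranged from 0 (without HAND1_OE replicate 1) to 3 (without HAND1_OE replicate 2). The length and GC trend and protein-coding genes alone were chosen after seeing the data. A remaining library of a group was assumed to vary like the other group. The cause of these shifts was not tested.

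Pathway genes called higher ranged from 0 to 1 when libraries were left out (ADAM12, without Control replicate 2). Imprinted and locus genes called higher were 1 (NNAT) with 1 FPKM in every library, quantile normalization, a rescaled sum, the length and GC trend removed or protein-coding genes alone, and 0 to 1 when libraries were left out. With protein-coding genes alone 1 of them was lower. Over all genes, 299 were higher and 309 lower. These counts were 0 and 0 with all genes above 0 tested (1458 and 2352 at an unadjusted p under 0.05 in limma), where HAND1 kept its difference of 5.20 but had an adjusted p = 0.153. They ranged from 134 to 266 higher and from 137 to 309 lower when libraries were left out.

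Directions turned only for members with overlapping groups, none of them called: IGF1R (0.072 after quantile normalization, 0.066 after median-ratio scaling, 0.092 to 0.36 without Control replicate 2 or HAND1_OE replicate 1), IGFBP2 (0.015 after median-ratio scaling, 0.065 without HAND1_OE replicate 2), IGFBP3 (1.08 without Control replicate 2, 0.38 without HAND1_OE replicate 1) and IGFBP6 (-0.27 without Control replicate 1, -0.47 without HAND1_OE replicate 2). Left-out libraries gave a range of -0.40 to 0.36 for IGF1R, -0.22 to 0.065 for IGFBP2, -1.46 to 1.08 for IGFBP3 and -0.47 to 0.56 for IGFBP6.

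Same-numbered libraries deviated together from their group means (r = 0.38 over 14622 genes), but the labels do not say what a number marks and there are only 2 pairs. With the replicate number as a replicate block, 3 members were called higher (IGF2, IGF2R and IGFBP7, with IGFBP5 at an adjusted p = 0.0603), 2 pathway genes higher and 1 lower, 1 imprinted gene higher and 1 lower, and, of all genes, 597 higher and 712 lower (8.95% of those tested). With the block and the length and GC trend removed the counts in that order were 3, 2, 1, 1, 2, 674 and 818.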

Other observations

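The imprinted domains of the genome gave a mixed pattern. Of 22 imprinted genes and 7 regulators of the IGF2 and H19 locus, 21 were tested. With limma 0 of the 21 were called in either direction, against 4.16% of all genes tested. An unadjusted p under 0.05 was seen for 4 of them, against 17.4% of all genes tested. Their median log2 difference was -0.048, against -0.078 over all genes. CDKN1C, a growth-limiting cell cycle inhibitor in the imprinted domain next to IGF2 and H19, reached 28.0 and 50.9 FPKM in Control, compared with 24.2 and 33.8 FPKM under HAND1_OE, with overlapping groups (adjusted p = 0.627). DLK1 and MEG3 form a pair of a protein-coding and a non-coding imprinted gene on chromosome 14, as IGF2 and H19 do on chromosome 11. DLK1, a Notch-like membrane protein, measured 61.7 and 44.7 FPKM in the Control libraries and 67.0 and 31.2 FPKM in those of HAND1_OE (adjusted p = 0.864), whereas MEG3 did not exceed 0.249 FPKM in any library. So in both pairs the non-coding RNA was under 0.25 FPKM beside a coding partner of at least 31.2 FPKM. PEG3, another imprinted gene, was listed at 0 in all libraries, which does not show that it was silent.

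NNAT, an imprinted membrane protein gene, and KCNQ1, an imprinted potassium channel gene in the domain next to IGF2, were chosen after their values were seen. NNAT reached 29.4 and 19.6 FPKM in Control, compared with 79.3 and 52.0 FPKM under HAND1_OE, with groups that did not overlap (log2 difference 1.38, standard error 0.28, adjusted p = 0.0634). KCNQ1 lay the other way, at 5.80 and 6.77 FPKM in Control against 2.50 and 3.26 FPKM in HAND1_OE, also with groups that did not overlap (log2 difference -0.91, standard error 0.196, adjusted p = 0.0735). Both NNAT and IGF2 had their highest value in HAND1_OE replicate 1 and their lowest in Control replicate 2. The same held for IGFBP4, IGFBP7, IGF2-AS, PEG10 and the stromal marker COL3A1, and the share of all genes with this order was not counted. CTCF, the protein that insulates IGF2 from its enhancers on the maternal copy, was at 12.1 to 14.3 FPKM in the libraries (log2 difference -0.13, adjusted p = 0.75, named after its values were seen).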
